A study of Mus musculus with 9 samples.

Results

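The cytosolic ribosomal proteins were read from 89 of the 55492 rows of 1 gene count table. Members were chosen by symbol: Rps or Rpl with a number and at most 1 closing letter and digit, the stalk genes Rplp0 to Rplp2, and Rpsa, leaving out names that end in -ps. GENCODE M21, a mouse annotation on build GRCm38, lists 83 of the 89 as protein-coding, 32 for the small and 51 for the large subunit, and 6 as processed pseudogenes. Of the 89, 83 passed the filter on low counts and are called measured below, and 80 of those are protein-coding. Rack1, which also encodes a ribosome component, falls outside the naming rule and is given separately.

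The RNA came from D2.0R cells (D2.OR in some labels), a line of mouse mammary adenocarcinoma grown in 10% serum, loaded with CellTrace Far Red, a dye diluted at each division, and held for a week in 2% serum. Cells that kept the dye, described as quiescent, were then sorted from cells that had lost it, described as proliferative. Poly(A) RNA was measured in 9 libraries. The shared sample description names dye-positive, bulk and dye-negative samples with 3 numbers each but ties no library to any of them. Libraries therefore go by their title numbers, cannot be grouped as replicates, and enter no test between sorted groups. Libraries 1 to 3, 4 to 6 and 7 to 9 are called blocks below, as runs of title numbers and nothing more.

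The cytosolic ribosome is built from a small subunit, which reads the messenger RNA, and a large subunit, which joins the amino acids. Each protein is needed in about equal amounts per ribosome, and growing cells spend much of their synthesis on them. In mammals these mRNAs begin with a run of pyrimidines, the TOP motif, through which the kinase mTORC1 and the RNA-binding protein LARP1 set how much of the mRNA is translated. The MYC transcription factor is known to raise many of these mRNAs. The data here are mRNA amounts and hold no measure of translation.

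To show the start sites that give this mRNA class its name, stretches of 60 bases from 35 before to 25 after the start are printed for the members of widest and narrowest range (RefSeq, GRCm38.p6), 5′ to 3′ on the gene's strand. Capitals mark the longest pyrimidine run of the stretch.
Rps7, chr12:28635929-28635988, minus strand: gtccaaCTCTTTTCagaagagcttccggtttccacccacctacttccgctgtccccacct
Rps27, chr3:90213624-90213683, minus strand: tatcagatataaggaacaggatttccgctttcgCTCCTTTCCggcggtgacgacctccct
Rpl12, chr2:32961677-32961736, plus strand: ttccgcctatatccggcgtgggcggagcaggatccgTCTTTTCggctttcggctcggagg
Rpl15, chr14:18270962-18271021, minus strand: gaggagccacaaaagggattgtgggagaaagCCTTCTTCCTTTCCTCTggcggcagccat
Rpl41, chr10:128549144-128549203, minus strand: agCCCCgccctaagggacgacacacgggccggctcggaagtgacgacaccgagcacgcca
Rpl7l1, chr17:46782632-46782691, minus strand: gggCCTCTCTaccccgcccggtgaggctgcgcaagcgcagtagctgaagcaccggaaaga
Rps27l, chr9:66946051-66946110, plus strand: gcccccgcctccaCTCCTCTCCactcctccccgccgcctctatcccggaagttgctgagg
The run of Rps27 is 9 bases and that of Rpl15 is 17 bases, and both cover the annotated start. In Rps7, Rps27l and Rpl7l1 the longest run lies before the start, and the 7 bases of Rpl12 lie just after it. The longest run of the Rpl41 stretch is 4 bases, and this says only that no longer run stands in this window.

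RefSeq windows were found for 60 of the 80 measured protein-coding members, with 71 windows in all. A run of at least 8 pyrimidines within 30 bases of the start, on the gene's own strand, stood in 36 of the 71 windows (50.7%), against 22.9% of all 32851 windows and 21.7% of the windows of measured genes. On the opposite strand the shares were 12.7% for the ribosomal proteins and 25.8% for all windows. Within the window of 300 bases, searched on both strands, the ETS-type motif CCGGAAG stood in 36.6%, against 8.86% of all windows and 17.9% of those of measured genes. For CTTTCC, which can overlap a pyrimidine run, the 3 shares in this order were 49.3%, 26.6% and 26.2%, and for the E-box CACGTG, which MYC can bind, 11.3%, 7.15% and 10.1%. For TATAAA they were 9.86%, 13.6% and 7%, so the members lay below all windows and above measured genes, and for CCAAT 31%, 37.4% and 38%. For the mitochondrial ribosomal proteins, the share with a sense pyrimidine run was 25.3% and the share with CCGGAAG 34.7%. These are matches of letters and say nothing of binding.

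The smallest total was 18732737 estimated counts (library 9) and the largest 41243036 (library 7), and no pair of libraries agreed within counting noise. Of the markers of the labelled cell type, Krt8, Krt18 and Cdh1 were measured in every library. Epcam stayed at or under 0.219 CPM (counts scaled to library size), Krt5 at or under 0.0284 CPM, and Krt14 was at 0.245 to 1.31 CPM. The fibroblast genes Pdgfra and Col1a1 were abundant, with at least 227 and 1099.7 CPM, and Dcn and Lum were low. Among markers of blood and vessel cells, Ptprc stayed at or under 0.109 CPM and Cd3e at or under 0.0347 CPM. Ncr1 and Cdh5 had no counts, Pecam1 was at 0.198 to 0.485 CPM, and Cd68 was at 11 CPM or less. Mki67, a marker of dividing cells, was at 62.9, 106 and 149 CPM in libraries 2, 5 and 8 and between 4.98 and 28.1 CPM in the other 6.

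The 89 rows held between 2.09% and 3.23% of all counts. The share was 2.94%, 2.09% and 2.65% in libraries 1 to 3, 3.12%, 2.16% and 2.64% in libraries 4 to 6, and 3.23%, 2.45% and 2.57% in libraries 7 to 9. Exact Clopper-Pearson 95% intervals, which cover counting error only, reached at most about 0.01 percentage points to either side. Library 7 held 1.55 times the share of library 2 (95% interval 1.543 to 1.552). Within each block the first library was highest, the second lowest and the third between them, while the blocks themselves overlapped: 2.09% to 2.94%, 2.16% to 3.12% and 2.45% to 3.23%. Large-subunit genes held between 1.86 and 1.92 times the counts of small-subunit genes in every library, so the balance of the subunits moved far less than their sum.

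For each member the log2 CPM of a library was set against that gene's median of all 9, and the median over the 83 measured members was taken as the library's score. The score was 0.15, -0.35 and 0.00 in libraries 1 to 3, 0.26, -0.35 and 0.00 in libraries 4 to 6, and 0.28, -0.19 and -0.06 in libraries 7 to 9. It spanned 0.63 on the log2 scale. The small subunit (0.66), the large subunit (0.61) and the 3 stalk genes (0.70) each spanned about as much, and for each of them libraries 2, 5 and 8 were the lowest 3. The same median over all 12813 tested genes was 0.00 in each library. Scaling of the libraries and centring on each gene's own median hold it near 0.00, so it is no observed contrast with the members. In bulk RNA, a different mix of cells and a different amount of RNA per cell cannot be told apart.

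**Figure D1:**
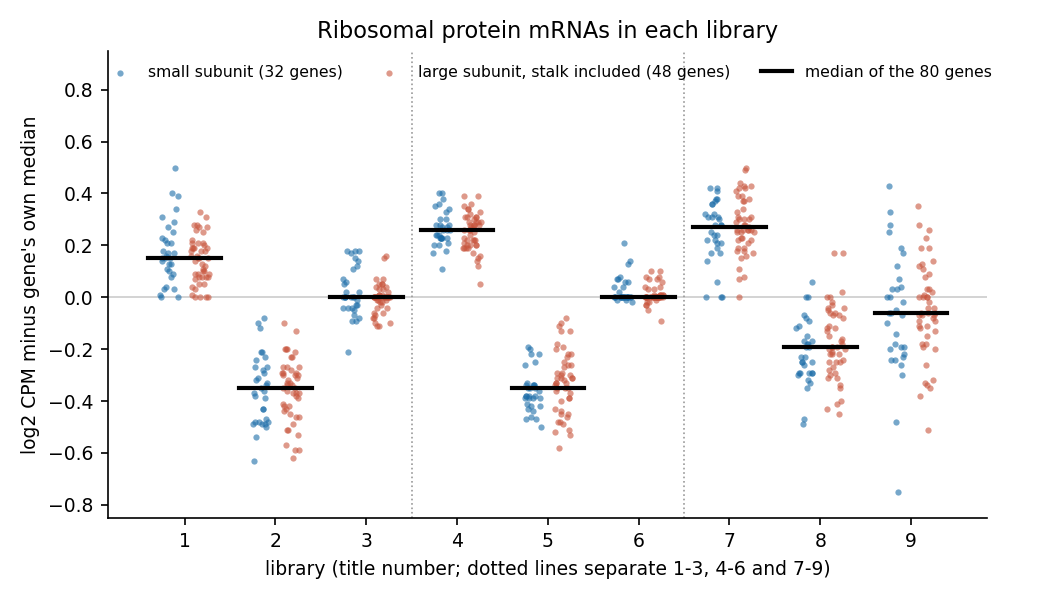
Each point is 1 measured protein-coding ribosomal protein gene in 1 library; the x axis gives the library's title number, the y axis its log2 CPM less that gene's median, and black bars the median of the 80 genes. Points for both subunits lie lowest in libraries 2 and 5, where the bars stand at -0.35, and highest in libraries 4 and 7, and library 9 has the widest spread.

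All 83 measured members varied beyond counting noise (chi-square test of dispersion, Benjamini-Hochberg over all tested genes, largest adjusted p among them 3.13e-07 for Rpl6l), as did 94.1% of the 12813 genes tested. Few moved far. A range of at least 1 on the log2 scale (2-fold) together with an adjusted p under 0.05 was reached by 4 of 83, against 28.0% of all tested genes. These were Rps7, Rps27, Rpl12 and Rpl6l, the last an annotated pseudogene at 1.71 to 3.86 CPM. The median range was 0.73 for the members and 0.69 for all tested genes, so the typical range was similar. Wide ranges were rarer among the members, whose highest was 1.15, against 5.78 over all tested genes. Differences in abundance between the members and other genes were not taken into account. With the factors of normalisation left out, 2 members passed the 2-fold rule, and leaving out library 2 or library 7 left 1.

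**Figure D2:**
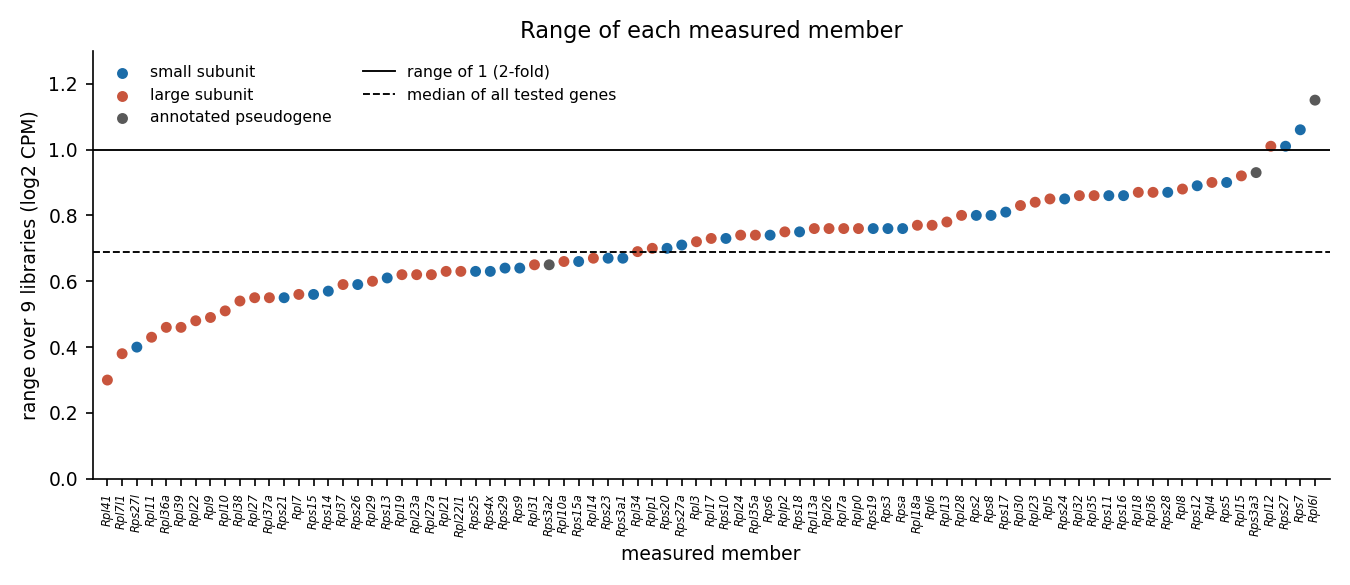
Range of log2 CPM over the 9 libraries (y axis) of each of the 83 measured members (x axis, sorted), coloured by subunit; the solid line marks a range of 1 and the dashed line the median of all tested genes, 0.69. Rpl41 is lowest at 0.30, and Rpl12, Rps27, Rps7 and the pseudogene Rpl6l lie above the solid line.

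What the members shared was the order of the libraries. The lowest library was 2 or 5 for 77 of 83 members, against 26.7% of all tested genes, and the highest was 4 or 7 for 72, against 18.7%. Both pairs are the extremes of the members' own score, so this contrast with all tested genes favours the members by selection. Libraries 2, 5 and 8 were all below the other 6 for 50 of 83 members (60.2%), against 20.1% of tested genes, and all above them for 0, against 19.0%. Libraries 1, 4 and 7 were all above the rest for 54 members, against 6.34%. These 2 sets of libraries are the lowest 3 and the highest 3 of the members' own score, so the same limit applies to them. The same order of positions held in all 3 blocks for 50 members, against 32.2%, and for each of the 50 it was first, last, middle, an order held by 9.84% of tested genes. For 0 members did a block lie apart from the other 6 libraries. Among all tested genes, 3.92% had libraries 1 to 3 all above the rest and 2.71% all below, 0.0390% had libraries 4 to 6 all above and 0.0312% all below, and 3.28% had libraries 7 to 9 all above and 4.10% all below. Kendall's W is 1 where genes rank the libraries alike and near 0 where their ranks are unrelated or opposite orders cancel. It was 0.818 over the 83 members and 0.001 over all tested genes. Libraries 2, 5 and 8 were all lowest in 20.1% of tested genes and all highest in 19.0%. The 0.001 therefore does not mean that other genes shared no order. The order of the members is a description of genes that share their libraries and, in part, their reads. With library totals alone as the scale, libraries 2, 5 and 8 were lowest for 35 members. With fewer libraries to set in order, the count was 75 without library 8 and 70 without library 9. The share of all tested genes was not computed in these settings, so these counts have no background beside them. Mki67 was high in the same libraries 2, 5 and 8. So was Krt8, at 307, 411 and 662 CPM there and at most 283 CPM elsewhere. The other measured epithelial markers did not have all 3 of these libraries above the other 6. Krt18 was at 91.3, 88.1 and 106 CPM there and highest in library 1, at 156 CPM. Cdh1 was at 11.1, 10.5 and 13 CPM there, the highest value of each block, and at 11.6 CPM in library 7. Col1a1 was high in libraries 2, 5 and 8, at 3521.1, 4011.7 and 4223.9 CPM, and at most 3084.6 CPM elsewhere. Pdgfra was highest in the same library within each block, at 865, 673 and 458 CPM. Cd68 was low there, at 4.60, 2.74 and 2.76 CPM against at least 6.40 CPM in the other 6. The part of dividing cells, or of any mix of cells, in the order was not tested.

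Among the proteins of the large subunit, the stalk recruits elongation factors to the ribosome. Rplp0, the base of the stalk, was at 775, 554 and 657 CPM in libraries 1 to 3, 840, 618 and 670 CPM in libraries 4 to 6, and 938, 753 and 636 CPM in libraries 7 to 9. Library 9 lay below library 8 here. The acidic stalk protein Rplp1 was at 631, 430 and 569 CPM, then 690, 424 and 555 CPM, then 649, 453 and 426 CPM, and its partner Rplp2 at 332, 220 and 286 CPM, then 370, 221 and 302 CPM, then 358, 254 and 321 CPM. Their ranges of 0.76, 0.70 and 0.75 were close to the members' median. In Rplp1 library 9 was as low as libraries 2 and 5, and in Rplp2 it was not.

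Rpl12, which sits at the base of the stalk, had 1 of the 4 widest ranges among members of at least 5 CPM. It was at 580, 347 and 518 CPM in libraries 1 to 3, 646, 358 and 534 CPM in libraries 4 to 6, and 697, 422 and 583 CPM in libraries 7 to 9. Libraries 2, 5 and 8 were below the other 6. The highest library was 2.01 times the lowest (95% interval 1.97 to 2.05, counting error only), and the range of 1.01 was under 1 with library totals alone and without library 2 or library 7. Rpl15, a large-subunit protein needed for maturation of that subunit, was at 404, 285 and 378 CPM, then 491, 327 and 413 CPM, then 540, 397 and 437 CPM. Library 2 was its lowest and library 7 its highest, 1.90-fold apart, under the 2-fold rule.

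Rpl5 and Rpl11 form, with the smallest ribosomal RNA, a particle that is built into the large subunit and that can bind and inhibit MDM2, the ligase of p53. Rpl5 was at 507, 321 and 451 CPM in libraries 1 to 3, 567, 349 and 475 CPM in libraries 4 to 6, and 578, 399 and 577 CPM in libraries 7 to 9. Rpl11 was at 367, 301 and 354 CPM, then 399, 306 and 348 CPM, then 406, 343 and 335 CPM. The pair shared the low libraries 2 and 5, but Rpl5 ranged over 0.85 and Rpl11 over 0.43, and in library 9 Rpl5 was near its highest value while Rpl11 was below its own median. Mdm2 itself was lowest in libraries 2, 5 and 8, at 64.3, 63.0 and 66.2 CPM, against 83.0 to 96.5 CPM in the other 6.

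Rpl41 encodes the shortest member, with 78 coding bases, and had the narrowest range. It was at 189, 154 and 183 CPM in libraries 1 to 3, 189, 155 and 165 CPM in libraries 4 to 6, and 174, 161 and 155 CPM in libraries 7 to 9. The highest library was 1.23 times the lowest (95% interval 1.18 to 1.27), with the adjusted p of the chi-square test at 1.86e-60. Libraries 2, 5 and 9 were low and lay close together.

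Among small-subunit proteins, Rps7 had the widest range of the protein-coding members. It was at 300, 194 and 283 CPM in libraries 1 to 3, 362, 213 and 312 CPM in libraries 4 to 6, and 403, 256 and 404 CPM in libraries 7 to 9. Libraries 2, 5 and 8 were below the other 6, and library 9 was level with library 7 at the top. The highest library was 2.09 times the lowest (95% interval 2.02 to 2.16), and the range of 1.06 was under 1 with library totals alone and without library 2.

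Rps6, the small-subunit protein phosphorylated by the S6 kinases, was at 568, 390 and 493 CPM in libraries 1 to 3, 604, 393 and 506 CPM in libraries 4 to 6, and 649, 447 and 603 CPM in libraries 7 to 9. Rpsa, known also as the laminin receptor, was at 1043.9, 698 and 890 CPM, then 1146, 764 and 886 CPM, then 1185.2, 930 and 862 CPM. Rps19, the gene most often mutated in Diamond-Blackfan anaemia, was at 142, 97.9 and 132 CPM, then 160, 102 and 139 CPM, then 165, 108 and 110 CPM. For these 3, library 2 was the lowest and library 7 the highest, with ranges of 0.74, 0.76 and 0.76, and they differed in library 9: high for Rps6, low for Rpsa and Rps19.

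Rps27, a small-subunit protein with a zinc finger, had another pattern. It was at 73.5, 56.8 and 69.1 CPM in libraries 1 to 3, 72.4, 47.3 and 63.1 CPM in libraries 4 to 6, and 61.6, 43.9 and 36.5 CPM in libraries 7 to 9. Its lowest library was 9 and its highest was 1, 2.01-fold apart (95% interval 1.85 to 2.20). The range of 1.01 was under 1 with RLE size factors, with near-identical copies added (0.97), and without library 1, 2, 6, 7 or 9, so its place above 2-fold rests on the setting. Its paralogue Rps27l, a gene known to be induced by p53, was at 33.1, 31.0 and 37.3 CPM, then 35.5, 28.7 and 38 CPM, then 32.9, 30.8 and 32.8 CPM. Rps27l ranged over 0.40 and was low in libraries 2, 5 and 8 and highest in library 6, and in library 9, where Rps27 was lowest, it was at its own median. Trp53 mRNA ranged over 0.14, and Cdkn1a, a main target of p53, was at 3.01, 3.78 and 5.06 CPM in libraries 2, 5 and 8 and at 9.51 to 22.6 CPM in the others.

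The coding sequences of this pair show how far reads can tell them apart. Both have 255 bases and differ at 61 of them (76.1% identity), and capitals mark the bases that differ (GENCODE M21 transcripts).
Rps27: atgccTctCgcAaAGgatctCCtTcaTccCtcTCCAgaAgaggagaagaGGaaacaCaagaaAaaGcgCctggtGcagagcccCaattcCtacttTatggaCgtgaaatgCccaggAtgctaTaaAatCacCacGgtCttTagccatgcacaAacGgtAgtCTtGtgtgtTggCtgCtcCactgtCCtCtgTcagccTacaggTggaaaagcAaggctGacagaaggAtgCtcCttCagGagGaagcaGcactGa
Rps27l: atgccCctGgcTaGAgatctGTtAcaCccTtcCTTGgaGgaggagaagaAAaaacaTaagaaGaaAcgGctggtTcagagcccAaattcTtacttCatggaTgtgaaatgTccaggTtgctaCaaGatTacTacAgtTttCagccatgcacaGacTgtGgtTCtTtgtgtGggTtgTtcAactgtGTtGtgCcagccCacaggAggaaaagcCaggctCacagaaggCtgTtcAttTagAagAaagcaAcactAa
The differences are spread over the whole length.

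Other paralogues were measured beside their parent genes. Rpl22, a large-subunit protein that binds RNA hairpins, was at 177, 135 and 168 CPM in libraries 1 to 3, 189, 147 and 169 CPM in libraries 4 to 6, and 187, 152 and 154 CPM in libraries 7 to 9. Its paralogue Rpl22l1 was at 27.9, 21.1 and 25.8 CPM, then 28.1, 19.6 and 24.0 CPM, then 23.0, 18.1 and 21.7 CPM. Rpl22l1 was lowest in library 8 and Rpl22 in library 2, with ranges of 0.63 and 0.48. Rpl7 was at 501, 403 and 465 CPM, then 554, 428 and 480 CPM, then 596, 486 and 553 CPM, and Rpl7l1 at 107, 83.9 and 103 CPM, then 107, 84.6 and 97.1 CPM, then 109, 89.6 and 106 CPM. Rpl7l1 had the second narrowest range (0.38) and still held libraries 2, 5 and 8 below the other 6, while in Rpl7 library 8 lay above library 3 and library 6.

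**Figure D3:**
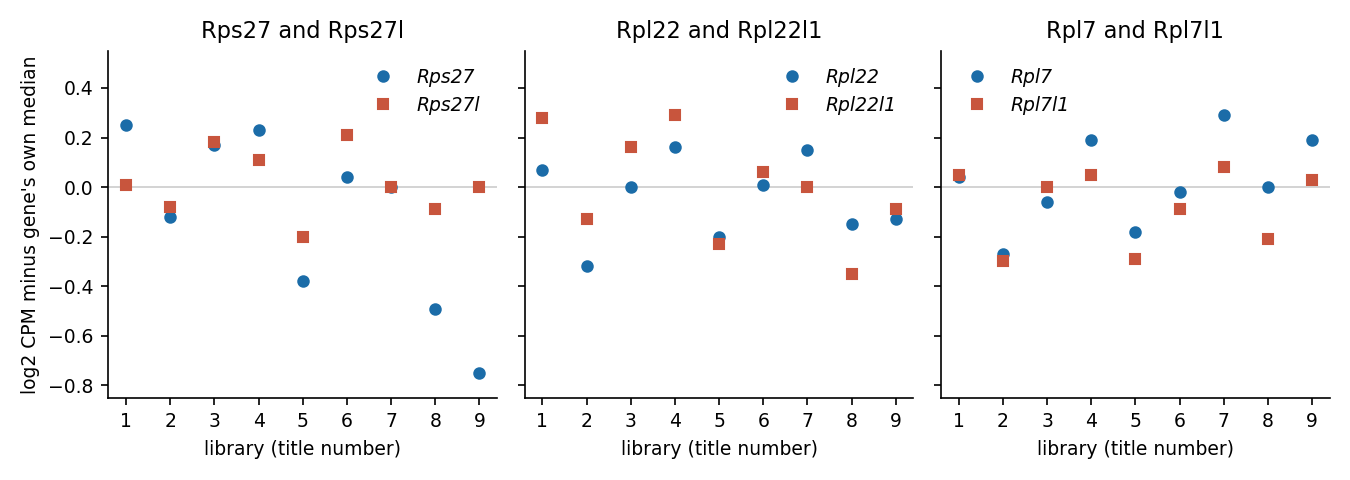
Log2 CPM less the median of that gene (y axis) in each library (x axis) for 3 parent genes (blue circles) and their paralogues (red squares). Rps27 falls away from Rps27l in libraries 8 and 9, where it is at 43.9 and 36.5 CPM, while the other pairs stay closer together.

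Paralogues known from muscle or testis were at or near zero, and no fold is given for them. Rpl39l and Rpl10l had no counts in any library, which with 3 counts as the floor allows up to 0.0742 to 0.164 CPM per library. Rpl3l, known from muscle, stayed at or under 0.0742 CPM, and Rps4l, annotated as a pseudogene, at or under 0.0283 CPM. Of the other members annotated as pseudogenes, Rps3a2, 99.5% identical to Rps3a1, was at 36.4 to 57 CPM and Rps3a3 at 3.15 to 6.06 CPM, while Rpl32l stayed at or under 0.139 CPM and Rps12l1 had counts in library 3 (0.99 CPM) and library 7 (4.55 CPM) alone. The parent genes of the paralogues were abundant. Rpl3 was at 440, 273 and 363 CPM in libraries 1 to 3, 445, 275 and 364 CPM in libraries 4 to 6, and 451, 305 and 365 CPM in libraries 7 to 9. Rpl10 was at 359 to 510 CPM, Rpl39 at 50.7 to 69.8 CPM and Rps4x at 387 to 598 CPM, each lowest in library 2.

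Ribosomal protein genes have many processed copies in the mouse genome, and this bears on what a row counts. A copy was taken as a row at least 95% identical to the coding sequence over at least 80% of it. The 80 measured protein-coding members had 572 such rows, with at least 1 for 76 of them. For 31 members over 99% of the summed counts stood on the gene's own row, and the median was 98.1%. For 17 members the own row held under 90%, and for 5 under 50%: Rps2 (3.84%), Rps18 (9.01%), Rpl29 (9.3%), Rpl26 (19.2%) and Rpl3 (45%). Rps2-ps10 alone held 228484 counts and Rps2 9195. RSEM splits a read that several genes could have given, so the row of such a gene is a share of an amount that the reads fix better than the split. The members named with values and most touched were Rpl3, Rps7 (55.1%), Rpl5 (56.8%), Rplp0 (61.8%), Rpl41 (67.7%) and Rpl15 (81.4%).

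**Figure D4:**
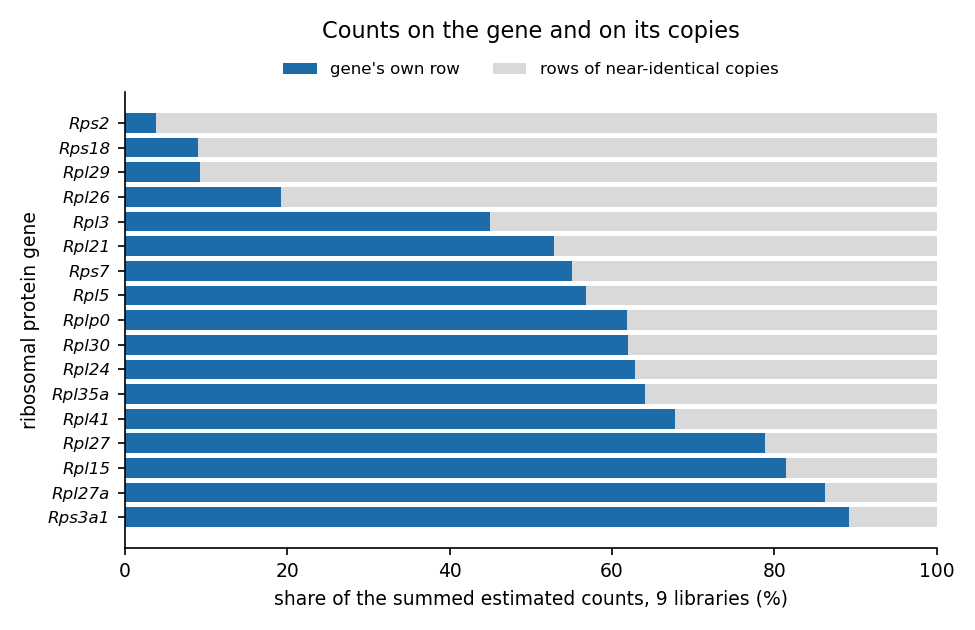
Share of the summed estimated counts of the 9 libraries (x axis, percent) on the gene's own row (blue) and on the rows of its near-identical copies (grey), for the 17 measured protein-coding members with under 90% on their own row. Rps2 keeps 3.84% and Rps3a1 keeps 89.2%.

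Stretches of 60 coding bases show how little separates some copies (GRCm38, GENCODE M21). Rps7 and Rps7-ps3 differ at 3 of 585 aligned bases, Rps18 and Rps18-ps6 at 4 of 459, and capitals mark the differences that fall in the stretch.
Rps7, coding bases 1 to 60: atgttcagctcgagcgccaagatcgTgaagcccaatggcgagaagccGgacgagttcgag
Rps7-ps3, the same bases: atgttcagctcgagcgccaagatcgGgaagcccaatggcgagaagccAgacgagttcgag
Rps18, coding bases 312 to 371: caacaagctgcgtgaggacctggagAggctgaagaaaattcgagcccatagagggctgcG
Rps18-ps6, the same bases: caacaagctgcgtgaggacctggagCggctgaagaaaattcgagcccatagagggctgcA
A read that covers none of these bases fits both rows. For Rpl5 and its copy Gm15500, all 894 coding bases are the same.

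Summing each member with its copies changed levels greatly for a few genes and the order of libraries little. Rps2 with its copies was at 917, 600 and 816 CPM in libraries 1 to 3, 1022.6, 635 and 837 CPM in libraries 4 to 6, and 1072.7, 748 and 872 CPM in libraries 7 to 9, while its own row lay between 23.4 and 40.8 CPM. Rps18 with its copies was at 345 to 547 CPM, against 50.6 CPM or less on its row. Rps7 with its copies was at 352 to 729 CPM with a range of 1.05, close to the 1.06 of its own row. The median range was 0.71 for the summed values and 0.72 for the rows. Libraries 2, 5 and 8 were lowest for 51 members after summing, and the share of all tested genes was not computed for that setting.

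Levels of different genes were set side by side only per kilobase of coding length, from the summed values. The paralogues Rpl22l1 (63.0 CPM per coding kilobase), Rps27l (129) and Rpl7l1 (139) were the 3 lowest of the 80. Rpl41 (3166.2), Rpl23 (2269.2) and Rplp1 (1613.2) were the 3 highest, and for a coding sequence as short as that of Rpl41 most of the mRNA lies outside it. The 90th percentile was 3.8 times the 10th. Per kilobase of the transcript chosen from the annotation the same ratio was 6.07. Some annotated transcripts are long for a gene of this class, as with the 5130 bases of Rps15a. The part of transcript length in this ratio was not tested.

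The members parted most in library 9, the library of lowest total. Set against the library's score, members ran from -0.70 to 0.48 on the log2 scale there, with an interquartile range of 0.23. Library 6 had an interquartile range of 0.03. Values are measured from each gene's own median, and library 6 was at or near that median for many members. Its spread is thus small by construction and does not show that members agree better there. Rps27 (-0.70), Rpl36 (-0.46), Rps28 (-0.42) and Rplp1 (-0.33) were the lowest in library 9 relative to the score, and Rps7 (0.48), Rpl35 (0.41) and Rps16 (0.39) the highest. Rpl36, Rps28, Rpl35 and Rps16 were chosen after their values were seen. Over the 80 protein-coding members, Spearman's rho between this difference and transcript length ran from -0.46 in library 2 and -0.36 in library 3 to 0.30 in library 9 and 0.36 in library 7. These correlations are across genes of 1 library, which share depth and preparation. Whether RNA length at preparation shaped the differences was not tested.

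Other genes of the translation machinery were read from fixed lists. Rack1, a scaffold protein on the small subunit, was at 929, 625 and 837 CPM in libraries 1 to 3, 1078.2, 701 and 912 CPM in libraries 4 to 6, and 1194.9, 838 and 823 CPM in libraries 7 to 9. Of 14 translation factors and other known TOP mRNAs, 10 were lowest in libraries 2, 5 and 8 (20.1% of all tested genes), and 0 passed the 2-fold rule (28.0% of all tested genes). The widest of them were Npm1, a nucleolar chaperone, at 499 to 993 CPM and Pabpc1, which binds poly(A) tails, at 952 to 1866 CPM, each from library 2 up to library 7. Hnrnpa1 had its highest value in library 8 (375 CPM) and did not share the order.

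The snoRNA host genes, many of whose spliced transcripts have TOP starts, spanned 1.01 in their median, and 4 of 7 passed the 2-fold rule, against 28.0% of all tested genes. Snhg8 was at 19.1, 9.12 and 14.0 CPM in libraries 1 to 3, 14.6, 8.98 and 12.5 CPM in libraries 4 to 6, and 11.8, 7.23 and 11.2 CPM in libraries 7 to 9. Of the list, 6 genes had libraries 2, 5 and 8 lowest (20.1% of all tested genes), and libraries 1, 4 and 7 were together highest for 0 (6.34%). Snhg6 ranged over 1.37 but rested on 1.49 to 3.94 CPM.

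Chaperones of ribosomal proteins and factors of late subunit maturation spanned 0.56, with 5 of 17 past the 2-fold rule, a share near the 28.0% of all tested genes, and 11 lowest in libraries 2, 5 and 8, against 20.1%. Mdn1, the large ATPase that strips factors from the maturing large subunit, was at 132, 63.3 and 134 CPM in libraries 1 to 3, 125, 72.1 and 146 CPM in libraries 4 to 6, and 135, 87.8 and 167 CPM in libraries 7 to 9. Pdcd2l, a paralogue of the Rps2 chaperone Pdcd2, was at 9.18 (library 2) to 23.4 CPM (library 7). Both were below the other 6 in libraries 2, 5 and 8.

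**Figure D5:**
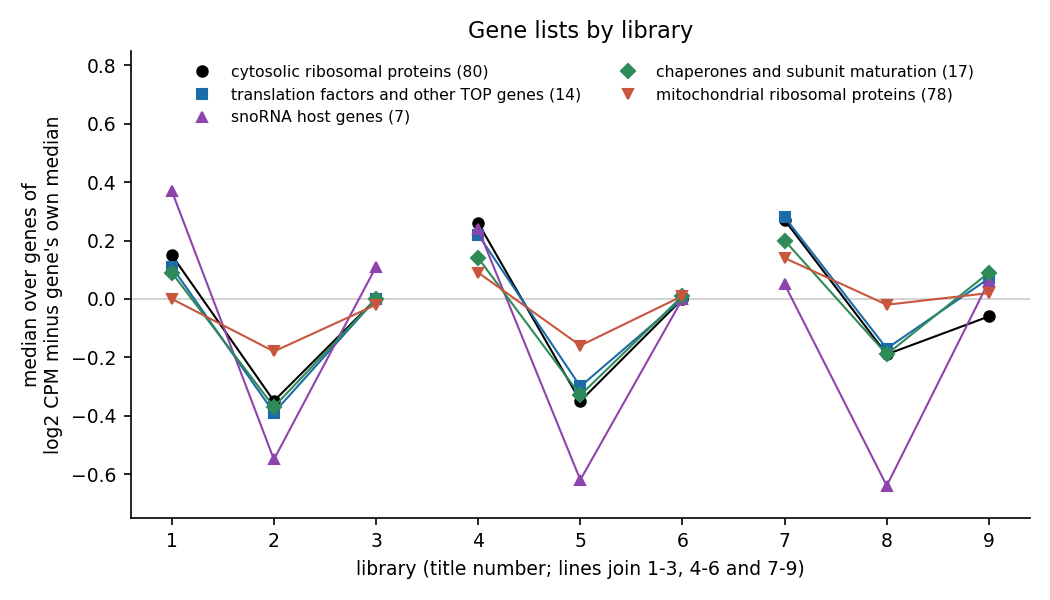
Median over the measured genes of a list of log2 CPM less the median of each gene (y axis) by library (x axis), with lines joining the libraries of a block and the number of genes in brackets. Libraries 2, 5 and 8 are the low points of each block for all 5 lists, deepest for the snoRNA hosts (-0.64 in library 8) and shallowest for the mitochondrial ribosomal proteins.

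Mitochondrial ribosomal proteins, which build the separate ribosome of the mitochondrion and are not among the known TOP mRNAs, had lower values on each of these measures. Their median spanned 0.31, with a median range of 0.53 and Kendall's W of 0.297 over 78 genes. Of the 78, 72 varied beyond counting noise, a share near the 94.1% of all tested genes. The 2-fold rule was passed by 1 (28.0% of all tested genes), and 27 had libraries 2, 5 and 8 lowest (20.1%). Mrpl38 had the widest range, from 49.4 CPM (library 2) to 99.1 CPM (library 7). The difference between the 2 kinds of ribosome was not tested. Differences in abundance between the 2 sets of genes, which bear on counting noise and so on Kendall's W, were not taken into account.

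A list of 12 held genes known to control ribosomal protein synthesis or the cell cycle, and Mki67, a marker of dividing cells. Of the 12, 4 passed the 2-fold rule, Mki67 among them, a share near the 28.0% of all tested genes. Libraries 2, 5 and 8 were lowest for 7 of the 12, against 20.1%. Myc was at 195, 62.6 and 153 CPM in libraries 1 to 3, 206, 73.3 and 153 CPM in libraries 4 to 6, and 199, 86.0 and 138 CPM in libraries 7 to 9, a range of 1.72. Its libraries stood in the order first, last, middle within each block, as the members' share of counts did. Eif4ebp1, the translation repressor that mTORC1 inactivates, was at 257, 87.6 and 243 CPM, then 299, 101 and 271 CPM, then 333, 133 and 255 CPM. Larp1 was at 207 to 386 CPM with a range of 0.89, lowest in library 2, whereas the mTORC1 genes Mtor and Rptor ranged over 0.22 and 0.28. Mki67 ran the other way. Whether any of these genes bears on the ribosomal protein mRNAs was not tested.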

How the data were processed

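The values are the authors' deposited RSEM expected counts, whole numbers without normalisation, for 9 libraries. Per the submitters' processing notes, the tools were STAR 2.7.8a, RSEM 1.3.3, cutadapt 2.3, FastQC 0.11.8 and MultiQC 2.7 on build GRCm38. Not given in the sources used here are the annotation release, strandedness and whether libraries came from separate cultures, so p-values measure counting noise only. All 9 columns matched a title.

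The filter of edgeR 4.0.16 with no groups kept 12813 genes, scaled with TMM factors. Log2 CPM used a prior count of 2. A chi-square test of dispersion against counting noise, Benjamini-Hochberg adjusted over these genes, replaced a group test and was tested on simulated data. Named members were the 4 widest and 3 narrowest in range above 5 CPM and fixed stalk, regulatory and paralogue genes, and at most 2 of each list beside Myc, Larp1, Mki67, Cdkn1a and Rack1. Members and lists were chosen with earlier results of these data known. Of 55492 identifiers, 55227 were in GENCODE M21. Copies were found with blastn 2.17.0. Promoter sequences are from RefSeq (GRCm38.p6). Alternatives were RLE factors, totals alone, factors without the members, no filter, a prior count of 0.5, leaving out each library, and adding copies.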

Additional observations from a re-analysis of the deposited data

Results flagged for a closer look

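Rps12l1, an annotated processed pseudogene that did not pass the filter on low counts, stood at 4.55 CPM in library 7 (184 counts), at 0.99 CPM in library 3 and at 0 in the other 7 libraries. The gap from library 7 to library 3 was 0.782 of the whole range in CPM, above Dixon's 95% critical value for 9 samples. On the log2 scale it was 0.34 of the range, below that value, so the library stands apart in CPM and not on the log2 scale. It was 1 of 85 members examined, and chance passes about 1 in 20 groups. Measured members were examined on the log2 scale, and Rps12l1 in CPM because it had not passed the filter. Its symbol pairs it with Rps12, which was at 315 CPM in library 7 and 294 CPM in library 3.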

How the results depend on the processing

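No paired analysis was possible because the labels give no library a replicate number of a group. The number of members past the 2-fold rule was 4, became 2 with library totals alone and ran from 1 to 4 when each library was left out in turn, with 1 without library 2 and 1 without library 7. It was 3 with near-identical rows added, where Rps27 ranged over 0.97. The span of the score was 0.63, became 0.61 with RLE factors and 0.55 with totals alone, and ran from 0.58 to 0.62 with each library left out. The highest over the lowest share of counts was 1.55, also 1.55 with pseudogene rows added and 1.55 with near-identical rows added, and ran from 1.49 to 1.55 with each library left out. The count of members lowest in libraries 2, 5 and 8 was 50 and ran from 35 (totals alone) to 75 (without library 8), with 38 without the filter and 47 with RLE factors. For this pattern the share of all tested genes was computed in the main setting alone. All measured members varied beyond counting noise in each setting run with the filter, and 84 of 87 did without it. Of 308 values for 22 named members, 297 kept their side of the 2-fold rule, and the other 11 belonged to Rps7, Rps27 and Rpl12 and dropped below it. The cause was not tested. Ranges of low rows such as Rpl6l are limited by counting.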
